A study of Mus musculus and Bos taurus with 26 samples.

Results

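The class I histone deacetylases are Hdac1, Hdac2, Hdac3 and Hdac8, written in upper case in cattle. They were taken by symbol from the expression values of mouse and bovine embryos, where all 4 were listed and tested in both species, among 27988 mouse genes and 21577 bovine genes. Of these genes 17336 in mouse and 12590 in cattle reached at least 1 FPKM (fragments per kilobase of transcript and per library size, a level per length) in at least 2 libraries and were tested. RNA was profiled in 22 mouse libraries of 11 groups and 4 bovine libraries of 2 groups, with 2 libraries in each group. Late 2-cell mouse embryos, taken 36 h after fertilization, had received Hdac1 mutant, Hdac1 wild-type (WT), Hdac2 mutant or Hdac2 WT mRNA, or water, as zygotes. Early 2-cell embryos, taken at 24 h, had received Hdac1 mutant or Hdac1 WT mRNA as zygotes. A further pair of late groups had Hdac1 mutant mRNA as zygotes and then a second injection of both blastomeres at the early 2-cell stage, with either Kdm5b mRNA, which encodes a histone H3 lysine 4 demethylase, or water. The remaining late 2-cell mouse embryos grew, without injection, in medium with FK228 at 50 nM from the zygote on or in medium with DMSO. FK228 is romidepsin, an inhibitor of class I enzymes, and how far it blocked each of the 4 members was not measured here. Likewise, bovine 8/16-cell embryos, taken at 72 h, had the same drug dose or DMSO. No group was described as carrying a deleted Hdac gene, so in every injected group the embryo's own genes were present beside the injected mRNA. The labels name neither the mutations nor the dose of mRNA, and they do not say that replicates came from separate collections of embryos, so a p-value reflects the spread of these libraries alone, part or all of which may be technical.

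Histone deacetylases remove acetyl groups from lysines of histones and other proteins. Hdac1 and Hdac2 are close paralogs that work side by side in the Sin3, NuRD, CoREST and MiDAC complexes, while Hdac3 works in corepressor complexes built around Ncor1, and Hdac8 acts outside these and deacetylates the cohesin subunit Smc3. In mouse embryonic stem cells that lack Hdac1, HDAC2 protein is known to be raised. The title of the series asks about the need for HDAC1/2 in zygotic genome activation, when an embryo starts to transcribe its own genes, which in mouse is strongest in the late 2-cell embryo.

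An injected mRNA and the embryo's own mRNA fall on the same row, so the sequences decide which rows can be read as the embryo's own. In mouse, on GRCm38 (GENCODE release M21), Hdac1 lies on chromosome 4 at 129516104 to 129542713 on the minus strand and Hdac2 on chromosome 10 at 36974544 to 37001889 on the plus strand. The coding sequences of Hdac1 and Hdac2 were 75.9% identical over 1446 aligned bases, with a longest shared run of 17 bases, and 0% of the 30-base words of Hdac1 occurred in Hdac2. The processed pseudogene Hdac1-ps, named Gm10093 in GENCODE, on chromosome 17 at 78491582 to 78493025, was 99.4% identical to the Hdac1 coding sequence and shared 86.2% of its 30-base words, with a longest shared run of 450 bases. The 60 coding bases in which Hdac1 and Hdac2 are most alike show this difference. Capitals mark the bases that differ from Hdac1, 8 in Hdac2 and 0 in Hdac1-ps. The window starts at coding base 241 in Hdac1 and 244 in Hdac2, counted from the start codon, and is printed 5′ to 3′ from the GENCODE M21 transcripts, that of Gm10093 for Hdac1-ps.
Hdac1: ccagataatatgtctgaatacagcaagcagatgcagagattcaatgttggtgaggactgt
Hdac2: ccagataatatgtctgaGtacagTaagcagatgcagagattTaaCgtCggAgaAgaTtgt
Hdac1-ps: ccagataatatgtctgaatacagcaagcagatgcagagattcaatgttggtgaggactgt

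The level of the injected mRNA was checked first. Hdac1 stood at 4952 and 4612 FPKM in Hdac1 mutant late embryos, 2707 and 2960 in Hdac1 WT late embryos, and 92.2 and 89.3 in water-injected embryos. In early embryos it stood at 4007 and 2952 with the mutant and at 7253 and 4519 with the WT mRNA. All 12 libraries with Hdac1 mRNA were thus far above the 10 without it. In early embryos both mutant libraries were lower than both WT libraries, whereas in late embryos both mutant libraries were higher. After the second injection Hdac1 was at 824 and 859 FPKM with Kdm5b and at 917 and 805 with water, so the means of these groups were 9.27 and 9.49 times the water mean, against 52.7 times in the Hdac1 mutant late embryos injected once. Hdac2 stood at 2443 and 2292 FPKM in Hdac2 mutant and at 1775 and 1462 in Hdac2 WT embryos, which were 104 and 70.9 times the mean of 22.8 in water-injected embryos. The injected rows therefore differed in level between mutant and WT, by a log2 fold change of 0.76 ± 0.18 (SE) for Hdac1 (adjusted p = 0.00188) and 0.55 ± 0.14 for Hdac2 (adjusted p = 0.00351) in limma, the Hdac2 call being lost without WT replicate 2 (0.41), and both calls with only the groups compared. These rows hold the injection and any response together and are not read as a response.

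Hdac1-ps was higher in every library with Hdac1 mRNA than in those without, but its level did not track that of Hdac1 among them. It was at 730 to 860 FPKM in Hdac1 mutant late embryos and 442 to 581 in Hdac1 WT late embryos, against 22.2 to 26.6 in water-injected embryos. Among the 8 late libraries with Hdac1 mRNA, its share of the Hdac1 level was 0.148 to 0.196 after a single injection and 0.0902 to 0.103 after a second injection. This share was 0.0879 to 0.0953 in the 4 early libraries and 0.241 to 0.334 in the 10 libraries without Hdac1 mRNA. From the early to the late stage in Hdac1 WT embryos, the log2 fold change was −1.02 ± 0.18 for Hdac1 and 0.009 ± 0.20 for Hdac1-ps. Reads that lie within the bases these copies share cannot be told apart, so the levels of both Hdac1 and Hdac1-ps are uncertain. Hdac2 showed no such split between libraries with and without Hdac1 mRNA. Among the libraries without Hdac2 mRNA it was highest, at 56.8 to 72.7 FPKM, in the 4 libraries injected again, where injected Hdac1 was lowest. Its group mean was lowest in Hdac1 WT late embryos, at 16.3 and 19.3 FPKM, which overlapped with water-injected embryos, beside 2960 and 2707 FPKM of Hdac1.

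**Figure D1:**
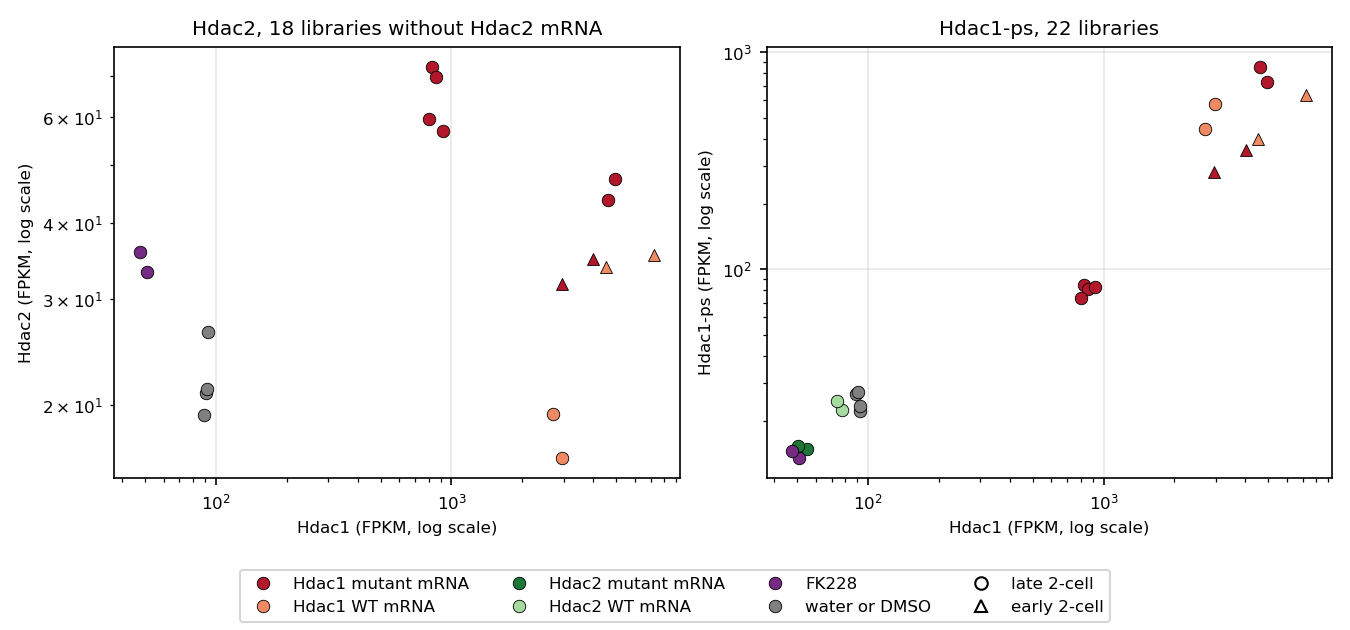
Level of Hdac2 (left, 18 libraries without Hdac2 mRNA) and of the pseudogene Hdac1-ps (right, 22 libraries) against the level of Hdac1, all in FPKM on log axes, with colour for the group and circles for late and triangles for early 2-cell embryos. Hdac1-ps is higher in the 12 libraries with Hdac1 mRNA than in the 10 without, and among those 12 its order differs from that of Hdac1, while Hdac2 is at 56.8 to 72.7 FPKM where Hdac1 is at 805 to 917 FPKM and at 16.3 and 19.3 FPKM in the Hdac1 WT late libraries.

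In embryos without injected Hdac mRNA, the class was made up mainly of Hdac1. The 2 members never injected, Hdac3 and Hdac8, are protein coding genes on the minus strand, at 37935844 to 37955016 of chromosome 18 and 102284639 to 102505359 of chromosome X (GRCm38, GENCODE release M21). In water-injected late 2-cell embryos Hdac1 held 76.5% to 79.7% of the summed FPKM of the class, Hdac2 17.2% to 21.9%, Hdac8 1.57% to 2.62% and Hdac3 0% to 0.498%. The DMSO embryos were close to this, with 78.4% to 79.1% for Hdac1. Hdac3 was near the floor: it was listed at 0 FPKM in the first water library and stood at 0.558 in the second, and the 4 late control groups (DMSO, Hdac1 WT, Hdac2 WT and water) overlapped with each other, at means of 0.472, 0.441, 0.409 and 0.279 FPKM. Hdac8 was at 1.89 and 2.93 FPKM in water-injected embryos. Bovine DMSO embryos had more HDAC2 and less HDAC1 by share, 32.8% to 33.3% and 52.0% to 56.8%, with HDAC3 at 2.80% to 7.95% and HDAC8 at 6.72% to 7.65%. The 2 species were taken at different stages and their values were not compared by a test.

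**Figure D2:**
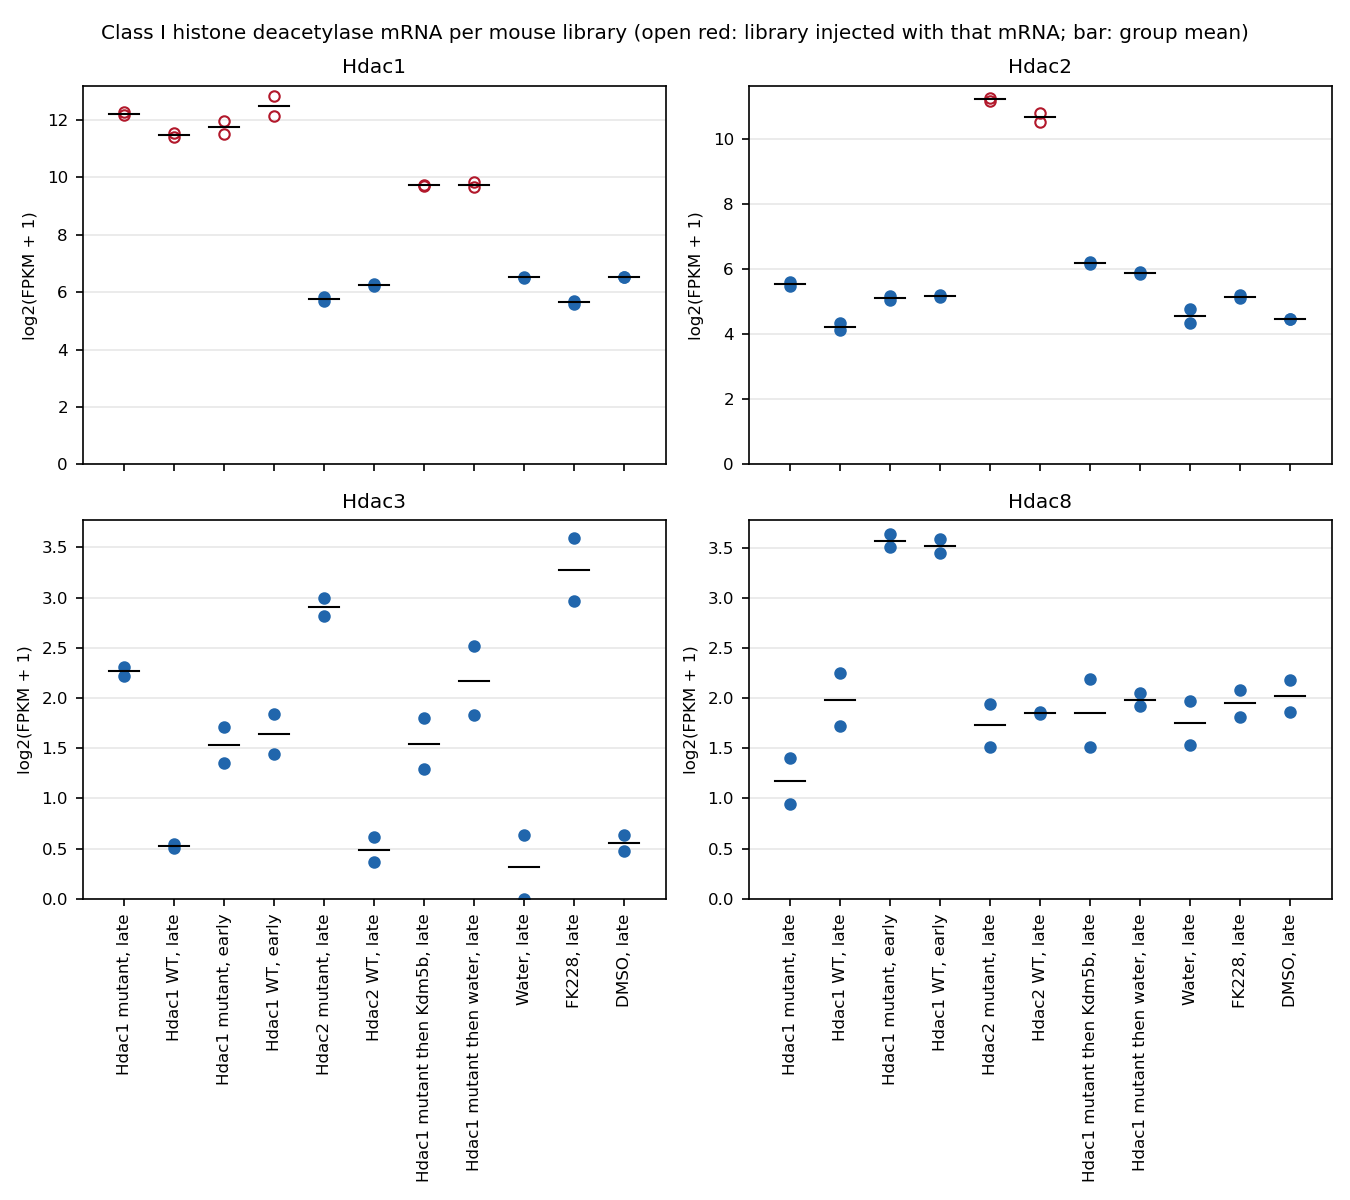
Level of each class I histone deacetylase in the 22 mouse libraries, as log2(FPKM + 1), by group; open red points are libraries injected with mRNA for that gene, filled points are not, and bars are group means. Hdac3 is above 1.2 on this scale in every library with mutant mRNA or FK228 and in the early Hdac1 WT libraries, and below 0.7 in the 8 late control libraries, and Hdac8 is high in the 4 early libraries.

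Hdac1 mutant embryos were set against Hdac1 WT embryos at the late 2-cell stage, which asks how the uninjected members stood when the injected enzyme was the mutant. Hdac2 and Hdac3 rose and Hdac8 fell. Of 17336 genes tested in limma, 30.5% rose and 21.6% fell at an adjusted p under 0.05 (Benjamini-Hochberg), so changes of 2 members upward and 1 downward among the 3 not injected are not unusual in number. The median of all tested genes was itself shifted by 0.17 on the log2 scale.
Hdac2 was at 47.3 and 43.8 FPKM in Hdac1 mutant embryos, against 19.3 and 16.3 in Hdac1 WT embryos. Both mutant libraries lay above both WT libraries, by a log2 fold change of 1.31 ± 0.14 (limma adjusted p = 1.54e-06), or 1.14 relative to the median gene. Hdac3 was at 3.97 and 3.65 FPKM in the mutant embryos, against 0.423 and 0.460 in the WT embryos, and the groups lay far apart. Its means differed 8.64-fold, a ratio made uncertain by WT values under 1 FPKM. On the log2(FPKM + 1) scale, which understates low genes, they differed by 1.74 ± 0.29 (adjusted p = 0.000132, limma).
Hdac8 was at 0.923 and 1.65 FPKM in the mutant embryos, against 3.74 and 2.31 in the WT embryos, without overlap. Its log2 fold change of −0.81 ± 0.27 passed at an adjusted p = 0.0182 in limma, but not without mutant replicate 1 (−0.58) or without WT replicate 1 (−0.55). It missed the threshold also when libraries were scaled to equal sums (−0.66) and when only the 4 libraries compared were fitted (adjusted p = 0.173). Against water-injected embryos the 3 genes gave 0.98 ± 0.14 for Hdac2 (adjusted p = 2.70e-05), 1.95 ± 0.29 for Hdac3 (adjusted p = 4.45e-05) and −0.58 ± 0.27 for Hdac8 (adjusted p = 0.0801) in limma, where 54.1% of genes were called in either direction. This value of Hdac8 passed under quantile normalization (−1.05) and without mutant replicate 2 (−0.81).

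Hdac2 mutant embryos were set against Hdac2 WT embryos at the same stage. Hdac3 rose again, the fall of the uninjected paralog Hdac1 passed the test as deposited, and Hdac8 did not pass. Here 30.8% of genes rose and 22.2% fell, beside 1 member higher and 1 lower of the 3 not injected, and the median gene was shifted by 0.14.
Hdac3 was at 6.03 and 6.96 FPKM in Hdac2 mutant embryos, against 0.531 and 0.288 in Hdac2 WT embryos. The means differed 15.9-fold, a ratio made uncertain by WT values under 1 FPKM, with a log2 fold change of 2.41 ± 0.29 (limma adjusted p = 4.91e-06). Hdac1 was at 55.4 and 50.4 FPKM in the mutant embryos, against 77.8 and 73.8 in the WT embryos, so that no libraries overlapped. Its log2 fold change was −0.51 ± 0.18 (adjusted p = 0.0222, limma), and it was −0.25 under median-ratio scaling, −0.21 with equal sums and 0.05, of the other sign, under quantile normalization. It lost the call without mutant replicate 2 (−0.45), WT replicate 1 (−0.47) or WT replicate 2 (−0.55), and with the pseudogene summed into it it stood at −0.54 (adjusted p = 0.0151).
Hdac8 was at 1.85 and 2.85 FPKM in the mutant embryos, against 2.63 and 2.59 in the WT embryos, which lay between the mutant libraries. Its log2 fold change was −0.12 ± 0.27 (adjusted p = 0.737, limma), and −0.68 with a passing test under quantile normalization. Against water-injected embryos, the fold changes after Hdac2 mutant mRNA were 2.58 ± 0.29 for Hdac3 (adjusted p = 2.05e-06) and −0.77 ± 0.18 for Hdac1 (adjusted p = 0.00138) in limma, where 58.4% of genes were called in either direction; Hdac1 was at −0.34 and missed the threshold under quantile normalization. The comparisons with water share the water libraries.

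Whether the mutants of the 2 paralogs differed in their effect on the members not injected in either was tested as a difference of the log2 fold changes. Hdac1 mutant minus Hdac2 mutant gave −0.68 ± 0.42 for Hdac3 (adjusted p = 0.636) and −0.69 ± 0.38 for Hdac8 (adjusted p = 0.596) in limma. Neither passed, as in nearly all genes, of which 0.104% were called. The paralog not injected went opposite ways, up for Hdac2 under Hdac1 mutant mRNA and down for Hdac1 under Hdac2 mutant mRNA. The direction for Hdac1 was lost under quantile normalization, and this difference between 2 genes was not tested.

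**Figure D3:**
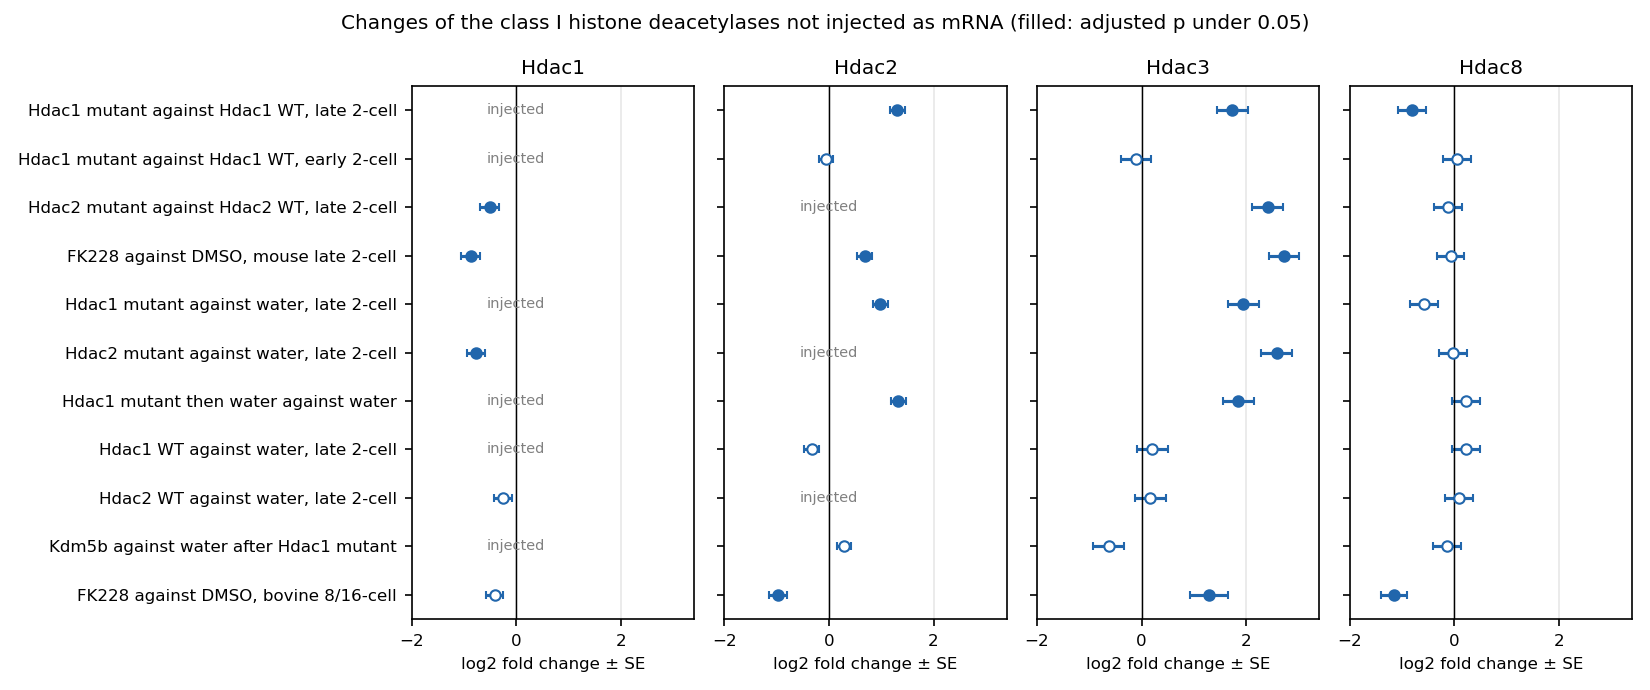
Log2 fold change with its SE for each class I histone deacetylase in 11 comparisons, first group named over second; filled points had an adjusted p under 0.05 in limma, and rows where the gene was itself injected carry no point. Hdac3 is to the right with filled points in all 6 mouse late comparisons with a mutant mRNA or FK228 over a control, and in cattle, and Hdac8 is filled only for Hdac1 mutant over WT at the late stage and for cattle.

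FK228 embryos were set against DMSO embryos in mouse, which needs no injected mRNA and so gives the embryo's own level of all 4 members. Hdac1 fell, Hdac2 and Hdac3 rose, and Hdac8 did not pass. Of all genes 31.0% rose and 26.3% fell, with a median of 0.15 on the log2 scale, beside 2 members higher and 1 lower of the 4.
Hdac1 was at 51.2 and 47.7 FPKM in FK228 embryos, against 90.6 and 92.1 in DMSO embryos. The log2 fold change was −0.87 ± 0.18 (adjusted p = 0.000492, limma) and dropped to −0.23, short of the threshold, under quantile normalization. Hdac1-ps was lower too, at −0.81 ± 0.20 (adjusted p = 0.00225, limma). Reads in the bases it shares with Hdac1 cannot be told apart, so the 2 rows are not independent. Hdac2 was at 33.2 and 35.9 FPKM in FK228 embryos, against 20.9 and 21.2 in DMSO embryos, and the log2 difference of 0.69 ± 0.14 passed (adjusted p = 0.000603, limma). The level of Hdac1 was thus 1.54 and 1.33 times that of Hdac2 within the FK228 libraries, against 4.33 times in both DMSO libraries.
Hdac3 was at 11.04 and 6.83 FPKM in FK228 embryos, against 0.388 and 0.556 in DMSO embryos. This was an 18.9-fold difference in means, a ratio made uncertain by DMSO values under 1 FPKM. The log2 fold change was 2.72 ± 0.29 (limma adjusted p = 1.09e-06). Hdac3 held 7.35% to 11.2% of the summed class in FK228 embryos, against 0.339% to 0.474% in DMSO embryos. Hdac8 was at 3.24 and 2.52 FPKM in FK228 embryos, against 2.64 and 3.53 in DMSO embryos, which overlapped (log2 fold change −0.07 ± 0.27, adjusted p = 0.847, limma). The Hdac1 mutant effect minus the FK228 effect was 0.63 ± 0.20 for Hdac2 (adjusted p = 0.0712), −0.99 ± 0.42 for Hdac3 (adjusted p = 0.162) and −0.74 ± 0.38 for Hdac8 (adjusted p = 0.248) in limma. None of these 3 differences passed, 2 of them had an unadjusted p under 0.05, and 6.97% of all genes passed.

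Marker lists of the embryo and of other cells were read in these 3 comparisons. Over all genes 30.5%, 30.8% and 31.0% rose in them, and 21.6%, 22.2% and 26.3% fell. The summed FPKM of 6 blood markers, which include Hba-a1, Hba-a2 and Cd74, was 98.8 to 112 in Hdac1 mutant against 2.62 to 5.42 in Hdac1 WT late embryos, 149 to 150 in Hdac2 mutant against 4.9998 to 7.01 in Hdac2 WT embryos, and 164 to 183 in FK228 against 9.32 to 14.4 in DMSO embryos. The 4 blood markers tested rose in the first comparison and 3 of 4 in each of the others, while the adult beta-globin Hbb-bs was listed at 0 in both libraries of every mouse group but FK228. Ptprc, another of the 6, was also at 0 in both Hdac1 mutant late libraries, so the sum there rests on only part of the list. The 12 cumulus and granulosa markers summed to 24.0 to 33.6 FPKM in Hdac1 mutant against 69.8 to 76.1 in Hdac1 WT late embryos, 35.0 to 35.7 in Hdac2 mutant against 65.6 to 69.2 in Hdac2 WT embryos, and 22.3 to 24.5 in FK228 against 68.1 to 75.4 in DMSO embryos. These lower sums did not reflect most of the list: of 7 tested, 3 rose and 1 fell in each mutant comparison and 1 rose and 1 fell under FK228 (1 and 1, 1 and 1, and 0 and 2 under quantile normalization), the one that fell being Nr5a2 (−1.90 ± 0.20 in Hdac1 mutant against WT late embryos), while Foxl2 was at 2.62 ± 0.39 there. The follicle receptor gene Fshr was listed at 0 in both libraries of each of these groups but FK228. In Hdac1 WT embryos Nr5a2 rose by 2.47 ± 0.20 from the early to the late stage (adjusted p = 2.59e-08, limma). The cumulus and granulosa sum was 22.9 to 23.3 FPKM early there, against 69.8 to 76.1 late. These sums therefore cannot be read as an amount of such cells. The 11 oocyte and cleavage embryo markers summed to 782 to 839 FPKM in Hdac1 mutant against 1229 to 1377 in Hdac1 WT late embryos, 792 to 956 in Hdac2 mutant against 1224 to 1660 in Hdac2 WT embryos, and 777 to 824 in FK228 against 1153 to 1182 in DMSO embryos, and none was at 0 in both libraries of any group. Their members also went both ways, with 4 higher and 3 lower, 3 and 3, and 4 and 3 in these comparisons (up to 7 higher under other scalings). As deposited, these counts were not far from the shares over all genes. In Hdac1 mutant against WT late embryos Obox6 was at −2.92 ± 0.21 and Zscan4c, whose near-identical copies make its level uncertain, at 2.16 ± 0.22. The part of these markers in the changes of the class was not tested, and in bulk samples fewer cells of a type and less RNA per cell cannot be told apart.

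The WT mRNAs were compared with water to see how the uninjected members stood when active enzyme was added. No uninjected member passed in limma, and 1 of the 6 values, that of Hdac2 under Hdac1 WT mRNA, had an unadjusted p under 0.05. For Hdac1 WT mRNA, Hdac2 was at −0.33 ± 0.14 (adjusted p = 0.262), Hdac3 at 0.21 ± 0.29 (adjusted p = 0.836) and Hdac8 at 0.23 ± 0.27 (adjusted p = 0.772), where 2.19% of genes were called. For Hdac2 WT mRNA, Hdac1 was at −0.26 ± 0.18 (adjusted p = 0.442), Hdac3 at 0.17 ± 0.29 (adjusted p = 0.834) and Hdac8 at 0.10 ± 0.27 (adjusted p = 0.914), where 9.45% of genes were called.

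At the early 2-cell stage, Hdac1 mutant and WT embryos overlapped for each of the 3 members not injected. Hdac2 was at 34.9 and 31.7 FPKM in mutant embryos, against 35.4 and 33.9 in WT embryos. Hdac3 was at 1.56 and 2.28 FPKM in mutant embryos, against 1.72 and 2.59 in WT embryos. Hdac8 was at 11.4 and 10.3 FPKM in mutant embryos, against 9.90 and 10.98 in WT embryos. The log2 fold changes were −0.06 ± 0.14, −0.11 ± 0.29 and 0.06 ± 0.27, each with an adjusted p of 1 in limma, and 0 of the 3 had an unadjusted p under 0.05. Few genes were called at this stage, 0.231% higher and 0.329% lower. Blood markers summed to 5.42 to 7.49 FPKM in the early mutant embryos, against 1.10 to 1.70 in the early WT embryos.
The stages then diverged by the kind of mRNA. In WT embryos all 3 members were lower at the late stage, and 56.8% of genes differed in either direction. Hdac2 had a mean of 17.8 ± 2.10 FPKM late, against 34.6 ± 1.06 early (SD, n = 2 each), a log2 fold change of −0.93 ± 0.14 (limma adjusted p = 3.36e-05). Hdac3 averaged 0.441 ± 0.0261 FPKM late, against 2.15 ± 0.614 early, and Hdac8 3.03 ± 1.01 late, against 10.4 ± 0.764 early. Their log2 fold changes were −1.11 ± 0.29 (adjusted p = 0.00406) and −1.53 ± 0.27 (adjusted p = 0.000130) in limma.
In mutant embryos, where 66.4% of genes differed and the median gene moved by 0.37, Hdac8 was lower at the late stage as well, at 1.29 ± 0.513 FPKM late against 10.9 ± 0.791 early (−2.40 ± 0.27, adjusted p = 1.25e-06, limma). Hdac2 was instead higher late, at 45.5 ± 2.50 against 33.3 ± 2.31 FPKM early, with a log2 difference of 0.44 ± 0.14 (adjusted p = 0.0121 in limma) that is 0.07 above the median gene. Without late replicate 1 or early replicate 2 of the mutant this call was lost (0.39 and 0.37). Hdac3 was at 3.81 ± 0.225 late, against 1.92 ± 0.504 FPKM early, by 0.73 ± 0.29 (adjusted p = 0.0387, limma). That call was lost without late replicate 1 (0.68), late replicate 2 (0.78) or early replicate 1 (0.55) of the mutant, and with a pseudocount of 0.1, with no filter or with only the groups compared, and the value was −0.03 under quantile normalization.
The stage comparisons share libraries with the comparisons of mutant and WT, so the change of the mutant effect with stage was tested directly. Late minus early, it was 1.37 ± 0.20 for Hdac2 (adjusted p = 8.88e-05), 1.85 ± 0.42 for Hdac3 (adjusted p = 0.00264) and −0.87 ± 0.38 for Hdac8 (adjusted p = 0.0861) in limma, with 36.4% of all genes called in either direction. The value of Hdac8 passed under quantile normalization (−1.41), without late mutant replicate 2 (−1.10) and without late WT replicate 2 (−1.13). In both Hdac2 and Hdac3 the late mutant libraries were above, and the late WT libraries below, every early library. No early group without Hdac1 mRNA was among the samples, so the embryo's own Hdac1 cannot be separated at that stage. The injected Hdac1 row changed with stage too. Its mutant mean was 1.69 times the WT mean late and 0.591 times early (late minus early 1.49 ± 0.25, adjusted p = 0.000257, limma). The part of this level in the stage differences was not tested.

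**Figure D4:**
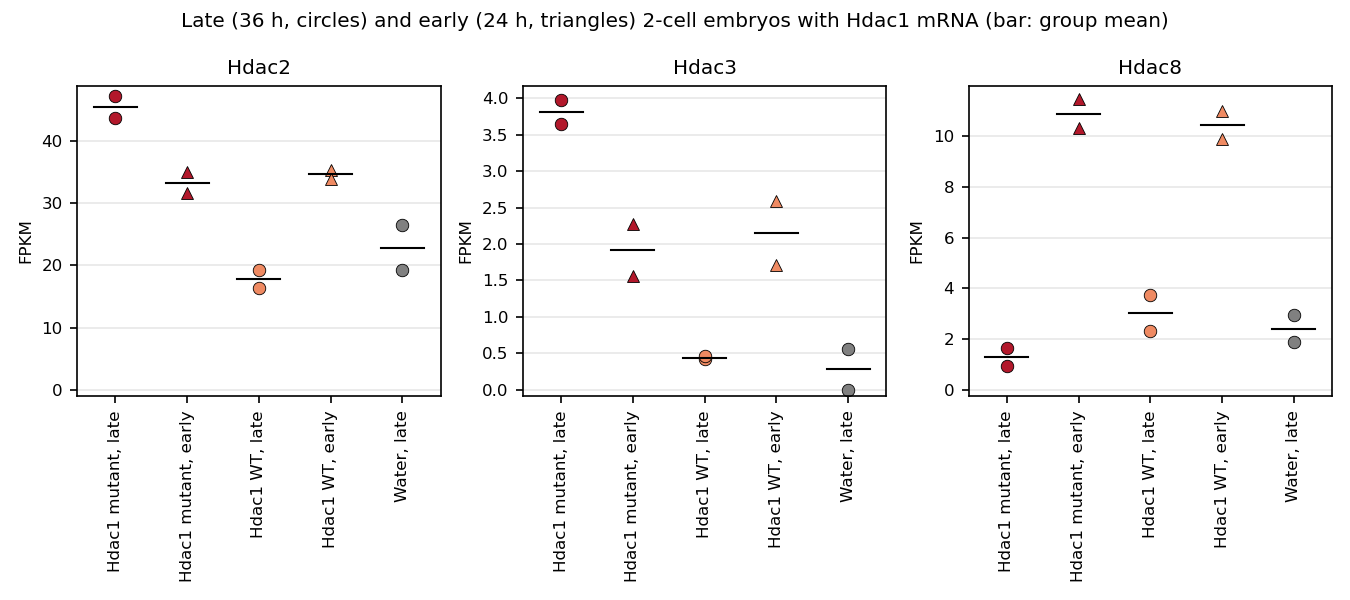
FPKM of Hdac2, Hdac3 and Hdac8 in late (36 h, circles) and early (24 h, triangles) 2-cell embryos with Hdac1 mutant or WT mRNA, and in late water-injected embryos; points are libraries and bars group means. Hdac2 and Hdac3 are highest in the late mutant libraries and lowest in the late WT and water libraries, and Hdac8 is at 9.90 to 11.4 FPKM in the 4 early libraries and at most 3.74 in the late ones.

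A second injection was used to ask whether Kdm5b mRNA changed embryos that already carried Hdac1 mutant mRNA. No uninjected member passed in limma, 0 of the 3 had an unadjusted p under 0.05, and 1.04% of all genes were called. Hdac2 was at 72.7 and 69.9 FPKM with Kdm5b, against 56.8 and 59.4 with water, without overlap (log2 fold change 0.29 ± 0.14, adjusted p = 0.352). Hdac3 was at 2.48 and 1.45 FPKM with Kdm5b, against 4.73 and 2.55 with water, both Kdm5b libraries being lower (−0.63 ± 0.29, adjusted p = 0.336). Hdac8 was at 3.56 and 1.86 FPKM with Kdm5b, against 3.15 and 2.78 with water, which overlapped (−0.13 ± 0.27, adjusted p = 0.885).
The group injected with Hdac1 mutant mRNA and then water was also set against the same water libraries, injected once, so mutant mRNA and the second injection cannot be told apart here. Hdac2 rose by 1.33 ± 0.14 (adjusted p = 1.46e-06) and Hdac3 by 1.85 ± 0.29 (adjusted p = 7.75e-05), while Hdac8 was at 0.23 ± 0.27 (adjusted p = 0.497) in limma, where 52.6% of genes were called. Hdac8 in this group, at 3.15 and 2.78 FPKM, lay above both libraries injected once with Hdac1 mutant mRNA, at 0.923 and 1.65. The lower Hdac8 of the single injection was therefore not seen again in these libraries. Against water, Hdac8 after the single injection had not passed either (−0.58 ± 0.27, adjusted p = 0.0801, limma). The libraries injected again held less injected Hdac1 and had a second injection, and the part of either was not tested.

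Bovine 8/16-cell embryos in FK228 were set against bovine embryos in DMSO. HDAC3 rose, HDAC2 and HDAC8 fell, and HDAC1 did not pass. Of the 12590 genes tested 22.2% rose and 27.4% fell, beside 1 member higher and 2 lower of the 4.
HDAC3 was at 12.4 and 13.5 FPKM in FK228 embryos, against 2.75 and 7.70 in DMSO embryos. Both FK228 libraries were higher, 2.48-fold in means, with a log2 fold change of 1.29 ± 0.36 (limma adjusted p = 0.0175), which missed the threshold without DMSO replicate 1 (0.68, adjusted p = 0.0617) and with no filter on low genes (adjusted p = 0.0927). HDAC2 was at 16.9 and 14.9 FPKM in FK228 embryos, against 32.1 and 32.2 in DMSO embryos, a fold change of −0.98 ± 0.17 (adjusted p = 0.00208, limma). HDAC8 was at 3.403 and 1.93 FPKM in FK228 embryos, against 7.50 and 6.50 in DMSO embryos, with a log2 fold change of −1.15 ± 0.25 (limma adjusted p = 0.00607). HDAC1 was at 40.6 and 38.4 FPKM in FK228 embryos, against 55.7 and 50.3 in DMSO embryos, without overlap (−0.41 ± 0.16, adjusted p = 0.0628).
Within libraries, HDAC1 was 2.40 and 2.58 times HDAC2 in FK228 embryos, against 1.73 and 1.56 times in DMSO embryos. This ratio was higher under the drug in cattle and lower under it in mouse. In mouse Hdac1 fell and Hdac2 rose, and in cattle HDAC2 fell while HDAC1 did not pass. The difference between the species was not tested, since stage and species cannot be told apart.

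**Figure D5:**
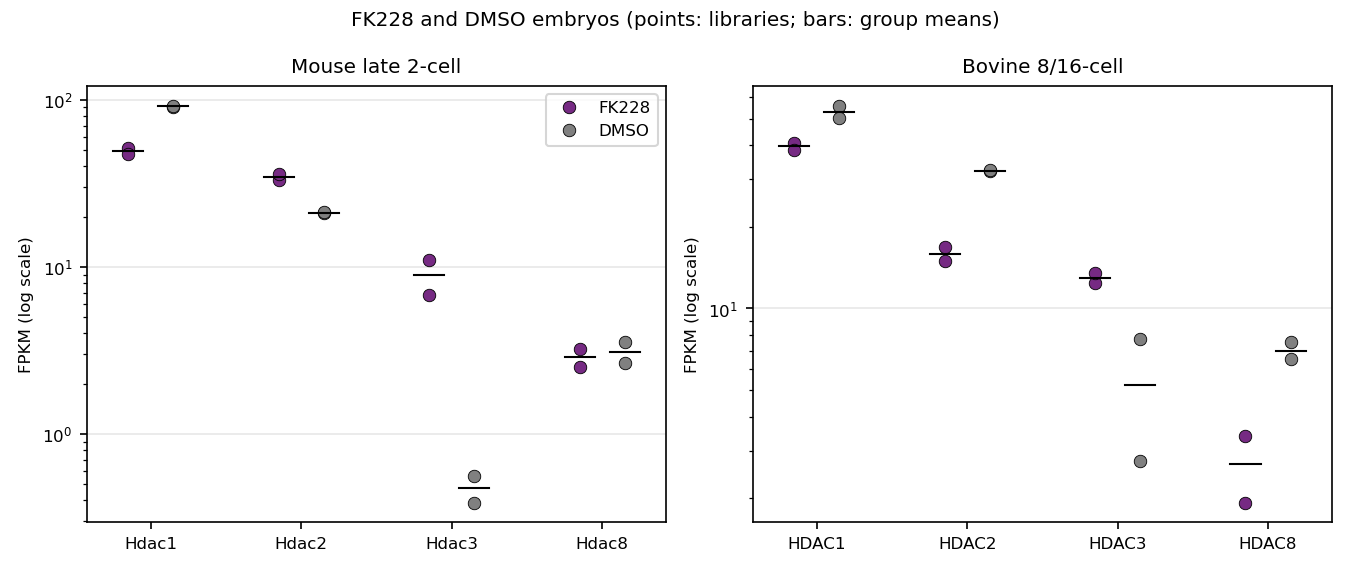
FPKM, on log axes, of the class I histone deacetylases in FK228 (left of each pair) and DMSO embryos, in mouse late 2-cell (left panel) and bovine 8/16-cell embryos (right panel); points are libraries and bars group means. Hdac3 is higher with FK228 in both panels, while Hdac2 is higher with FK228 in mouse and lower in cattle.

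The order of groups by mean level differed between members. Hdac3 was highest in FK228 (8.94 FPKM) and Hdac2 mutant embryos (6.50), whose libraries overlapped, followed by Hdac1 mutant late embryos (3.81) and those injected again with water (3.64), which also overlapped. Hdac2, leaving out the embryos injected with it, ran from 71.3 FPKM after the second injection with Kdm5b, through 58.1 with water and 45.5 in Hdac1 mutant late embryos, to 17.8 in Hdac1 WT late embryos. Those 3 upper groups did not overlap with their neighbours in this order, whereas water and DMSO embryos did. Hdac8 was at 10.9 and 10.4 FPKM in early mutant and WT embryos and at 3.09 or less in all 9 late groups. Hdac1, leaving out the embryos injected with it, was at 91.3 FPKM with DMSO and 90.8 with water, which overlapped, and lowest at 52.9 in Hdac2 mutant and 49.4 in FK228 embryos, which overlapped too.
Across libraries without injected mRNA for either gene of a pair, Pearson's r on the log2 scale was −0.95 between Hdac1 and Hdac3 over 10 libraries and −0.90 between Hdac1 and Hdac2 over 6. It was 0.57 between Hdac2 and Hdac3 over 18 libraries and −0.10, −0.03 and 0.05 between Hdac8 and Hdac2, Hdac3 and Hdac1. These describe the same groups again, since libraries of a group share their treatment. The genes whose pattern was most like that of a member were Zfp981, Fem1c and Zfp330 for Hdac1 (r of 0.995, 0.994 and 0.991 over 10 libraries) and Ykt6, Ubr2 and Actg1 for Hdac2 (0.963, 0.957 and 0.956 over 18). They were S1pr3, Gsta4 and Kif21b for Hdac3 (0.976, 0.968 and 0.965 over 22) and Ttc9c, Echs1 and Lamtor3 for Hdac8 (0.963, 0.944 and 0.944 over 22).

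Partners of the class were read from gene lists, beside the shares over all genes: 30.5% rose and 21.6% fell in Hdac1 mutant against WT late embryos, 30.8% and 22.2% in Hdac2 mutant against WT embryos, 31.0% and 26.3% in FK228 against DMSO mouse embryos, and 22.2% and 27.4% in cattle. Of 38 tested partners of Hdac1 and Hdac2 in the Sin3, NuRD, CoREST, MiDAC and Mier complexes, 6 rose and 18 fell in Hdac1 mutant against WT late embryos, with a median log2 fold change of −0.32 beside 0.17 over all genes. With other scalings the split became 10 and 13 (median ratio), 10 and 15 (quantile) and 11 and 12 (equal sums), with medians of −0.13, −0.04 and −0.06. Ing2, a Sin3 subunit that reads methylated histone H3, rose by 1.83 ± 0.22 (adjusted p = 5.03e-06), and Mbd2, a methyl-CpG binding NuRD subunit, by 1.74 ± 0.26 (adjusted p = 4.55e-05). Mta2, a NuRD scaffold, was at −2.57 ± 0.17 (adjusted p = 1.28e-08) and Mier3 at −2.42 ± 0.13 (adjusted p = 3.55e-09, all limma). In Hdac2 mutant against WT embryos 6 rose and 16 fell (10 to 11 and 12 to 14 under the other scalings, with a median of 0.005 under quantile normalization), with Mta2 at −3.02 ± 0.17, Mier3 at −2.77 ± 0.13, Ing2 at 1.96 ± 0.22 and Mier1 at 1.62 ± 0.42, all passing. In FK228 against DMSO mouse embryos 6 rose and 17 fell (7 to 9 and 14 to 15 under the other scalings), with Mta2 at −3.63 ± 0.17, Mier3 at −2.82 ± 0.13, Ing2 at 2.38 ± 0.22 and Sin3b, a Sin3 scaffold, at 1.28 ± 0.32. In early embryos 0 passed in either direction, and 1 each way had an unadjusted p under 0.05 (limma). In cattle 4 of 36 rose and 11 fell (8 and 9 under quantile normalization, with a median of 0.011, and 7 and 10 with equal sums), with MTA2 at −1.83 ± 0.19, the histone chaperone RBBP4 at −1.77 ± 0.20, ING1 at 0.67 ± 0.15 and HMG20B at 0.67 ± 0.16.

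Of the 5 partners of Hdac3, at most 2 rose in these mouse comparisons, and 3 rose in cattle. Over all genes 30.5% to 31.0% rose and 21.6% to 26.3% fell in these mouse comparisons, and 22.2% and 27.4% in cattle. The numbers that rose in mouse are thus not unusual for 5 genes. In Hdac1 mutant against WT late embryos Tbl1xr1 rose, by 0.50 ± 0.16 (adjusted p = 0.0165), and the corepressor Ncor1 was lower, at −0.58 ± 0.16 (adjusted p = 0.00554, limma). With other scalings these counts became 1 and 0 (median ratio), 0 and 1 (quantile) and 2 and 0 (equal sums). In Hdac2 mutant against WT embryos 2 rose, among them Tbl1xr1 (0.55 ± 0.16), and Ncor1 (−0.93 ± 0.16) and Gps2 (−0.84 ± 0.27) fell, the counts being 2 and 1, 1 and 3 and 2 and 1 under the same 3 scalings. In FK228 against DMSO mouse embryos 0 rose, also at an unadjusted p under 0.05, and 3 fell (1 to 2 under the other scalings; limma), among them Gps2 at −1.44 ± 0.27 and Tbl1x at −0.77 ± 0.28. In cattle 3 rose, among them TBL1XR1 at 0.59 ± 0.16, and 0 fell, also at an unadjusted p under 0.05.
Genes of the cohesin cycle, the pathway of the Hdac8 substrate, fell both where Hdac8 passed the test and where it did not. Of 12 tested, 11 fell in Hdac1 mutant against WT late embryos, 10 in Hdac2 mutant against WT embryos, 10 in FK228 against DMSO mouse embryos and 8 in FK228 against DMSO bovine embryos, and 0 rose in any, also at an unadjusted p under 0.05 (limma). Their median log2 fold changes were −0.90, −0.72, −1.001 and −0.69. Over all genes 21.6%, 22.2%, 26.3% and 27.4% fell in these comparisons. Under the other scalings 8 to 10, 5 to 8, 8 and 8 cohesin genes fell, and 0 rose. The cohesin ring subunit Smc1a was at −2.13 ± 0.27 and the ring's kleisin Rad21 at −1.76 ± 0.12 in Hdac1 mutant against WT late embryos. Rad21 was at −1.64 ± 0.12 in Hdac2 mutant against WT embryos and at −1.92 ± 0.12 in FK228 against DMSO mouse embryos. Stag2, a further subunit, was at −1.54 ± 0.32 and −2.03 ± 0.32 in these, and STAG2 at −3.14 ± 0.22 in bovine embryos. In early embryos 0 of 12 passed and 0 had an unadjusted p under 0.05.
Of the 7 other histone deacetylases tested in mouse, Hdac11, of class IV, and Hdac7, of class IIa, rose in Hdac1 mutant against WT late embryos, by 2.56 ± 0.32 and 1.84 ± 0.26, and 0 fell, also at an unadjusted p under 0.05, with 1 lower under quantile normalization. A count of 2 among 7 is near the share of all genes that rose, 30.5% here and 30.8% in Hdac2 mutant against WT embryos. Hdac11 and Hdac7 rose by 3.45 ± 0.32 and 2.46 ± 0.26 in Hdac2 mutant against WT embryos, where Hdac4 was at −0.82 ± 0.31 and passed as the only one to fall (0 to 2 fell under the other scalings). In FK228 against DMSO mouse embryos 3 rose, with Hdac11 at 3.18 ± 0.32 and Hdac7 at 2.77 ± 0.26, and Hdac4 (−1.34 ± 0.31) and the tubulin deacetylase Hdac6 (−0.69 ± 0.19) fell, with 1 gene falling under each other scaling. In cattle HDAC11 rose by 0.89 ± 0.16, and HDAC6 (−1.25 ± 0.23) and HDAC5 (−0.96 ± 0.22) fell, of 5 tested. On the log2(FPKM + 1) scale the rise of Hdac11 was thus larger than that of Hdac3 in all 3 mouse comparisons, without a test between genes. This scale understates low genes, and Hdac3 was near the floor in controls, so the order of the 2 genes may depend on it. No gene named from these lists turned its sign under the other scalings.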

How the data were processed

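PolyA RNA of whole embryos was sequenced, per the labels' protocols, from oligo(dT)-selected mRNA with no strand-marking step described. The values used were FPKM, deposited by the authors for each gene in each library; the submitters' processing notes name Trimmomatic, HISAT2, featureCounts and Cufflinks with GRCm38 and ARS-UCD1.2, with no version stated. FPKM divide by library totals, so total RNA per embryo is not seen. Read depth is unknown; relative depth, estimated roughly from low genes, ran from 0.682 to 1.31 in mouse (67.5% of 231 library pairs within 0.06 log2 of a single depth per library) and from 0.913 to 1.07 in cattle. Summed FPKM of the mouse libraries ran from 261955 to 381525, and 10704 to 14554 genes reached 1 FPKM; 0 sample columns were left unmapped.

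Values were taken as log2(FPKM + 1) for genes of at least 1 FPKM in at least 2 libraries. limma 3.58.1 (R 4.3.3) took a mean per group over all 22 mouse libraries (residual degrees of freedom: 11) and, apart, over the 4 bovine ones (residual degrees of freedom: 2), with a variance trend in its empirical Bayes step and two-sided tests adjusted by Benjamini-Hochberg over all genes tested. Python 3.11.15 and Biopython 1.88 compared sequences. The members, lists and naming rules were chosen with earlier results of these data known. Named from each list were at most 2 called genes in each direction, by size of change, and the 3 genes most like each member by Pearson's r; a gene that the rule also names is not reported here, though list counts include it. Alternatives were another pseudocount, other filters and scalings, fits of only the groups compared, a replicate block, each library left out and, chosen after seeing the data, Hdac1 summed with Hdac1-ps.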

Additional observations from a re-analysis of the deposited data

Results flagged for a closer look

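The effect of Hdac1 mutant against WT mRNA differed between the late and the early 2-cell stage for Hdac2, by 1.37 ± 0.20 on the log2 scale (adjusted p = 8.88e-05), and for Hdac3, by 1.85 ± 0.42 (adjusted p = 0.00264, limma), with the mutant higher in 2 of 2 late libraries for both. The injected Hdac1 row itself differed between the stages, by 1.49 ± 0.25 (adjusted p = 0.000257, limma), and its part in this was not tested. FK228 moved Hdac2 in opposite directions in the 2 species, with a log2 fold change of 0.69 in mouse late 2-cell embryos and −0.98 in bovine 8/16-cell embryos, both libraries of each group going the same way; this difference was not tested.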

How the results depend on the processing

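Over 64 values and 827 alternative fits, Hdac3 kept its call in the 3 late mouse comparisons (Hdac1 mutant against WT, Hdac2 mutant against WT, FK228 against DMSO) under each alternative, as did Hdac2 where it was not injected. Under the minimum of 5 FPKM, Hdac3 stayed in the test only through the FK228 and Hdac2 mutant libraries, where it is high. Its call under that filter is therefore no support. Hdac1 in Hdac2 mutant against WT embryos was weaker under median-ratio scaling (−0.25) and equal sums (−0.21), of the other sign under quantile normalization (0.0493), and ran from −0.58 to −0.45 with each library left out, losing the call in 3 of 4. Hdac1 under FK228 was −0.23 under quantile normalization. Hdac8 in Hdac1 mutant against WT late embryos was −0.66 with equal sums, −0.81 and short of the threshold with only the groups compared, which leaves fewer samples, and −1.07 to −0.55 with each library left out. Hdac8 in Hdac2 mutant against WT embryos passed at −0.68 under quantile normalization. Bovine HDAC3 missed the threshold with no filter (1.29), where more genes were tested, and ran from 0.68 to 1.89 with each library left out. Hdac3 in late against early Hdac1 mutant embryos was −0.0258 under quantile normalization. For the rest, the cause was not tested. Quantile normalization changed 9 outcomes, fits of only the groups compared 9, leaving out a library 19 of 304, no filter 3, a pseudocount of 0.1 2, equal sums 2, median-ratio scaling 1, a minimum of 5 FPKM 0, and summing Hdac1 with Hdac1-ps, chosen after seeing the data, 0. The median gene of Hdac1 mutant against WT late embryos stood at 0.17 as deposited, 0.30 under median-ratio scaling, 0.35 with equal sums and 0.00 under quantile normalization (−0.000582). The labels do not say that a replicate number marks a shared origin; same-numbered deviations correlated at −0.0893 to 0.175 over 55 mouse group pairs, 3 of them over 0.1, and at 0.233 in the bovine pair, too few to show pairing. With a replicate block 1 of 64 outcomes changed, the row of Hdac1 itself in Hdac1 mutant minus Hdac2 mutant effects (1.27, now passing), and Hdac2 in Hdac1 mutant against WT late embryos stayed at 1.31.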

Other observations

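The genes next to Hdac3 on mouse chromosome 18 were looked at after the values of Hdac3 were seen. Rell2 begins 62 bases away and on the other strand, and Fchsd1 lies 2414 bases away. In every control and early library both stood under 1 FPKM, except Fchsd1 at 1.36 in the second water library. They thus passed the filter through the mutant and FK228 groups where they are high, so their tests only describe those groups. Over all genes 30.5% rose in Hdac1 mutant against WT late embryos, 30.8% in Hdac2 mutant against WT embryos and 31.0% under FK228 in mouse. Fchsd1 was at 7.10 and 7.37 FPKM in FK228 embryos, against 0.251 and 0.306 in DMSO embryos, a log2 difference of 2.69 ± 0.32 (limma adjusted p = 3.27e-06). It rose by 1.75 ± 0.32 in Hdac1 mutant against WT late embryos (adjusted p = 0.000276) and by 1.98 ± 0.32 in Hdac2 mutant against WT embryos (adjusted p = 8.37e-05, limma). Rell2 was at 3.35 and 5.06 FPKM in FK228 embryos, against 0.174 and 0.655 in DMSO embryos, and rose by 1.88 ± 0.31 (adjusted p = 9.10e-05), by 1.11 ± 0.31 in Hdac1 mutant against WT late embryos (adjusted p = 0.00725) and by 1.28 ± 0.31 in Hdac2 mutant against WT embryos (adjusted p = 0.00266, limma). In early embryos Fchsd1 was at −0.13 ± 0.32 and Rell2 at 0.17 ± 0.31, each with an adjusted p of 1 (limma). By annotation Rell2 and Hdac3 start head to head, while Rell2 and Fchsd1 overlap on opposite strands. With no strand-marking step described, reads of Rell2 and Fchsd1 cannot be told apart in the overlap. In Hdac1 mutant late embryos against water, Fchsd1 passed (1.096 ± 0.32, adjusted p = 0.00916) and Rell2 did not (0.71 ± 0.31, adjusted p = 0.0687, limma). Marcksl1 and Hdac1 end toward each other by annotation, 118 bases apart. Where Hdac1 was lower, Marcksl1 rose, by 0.89 ± 0.16 under FK228 (adjusted p = 0.00015, limma). In Hdac2 mutant against WT embryos it rose by 1.005 ± 0.16 (adjusted p = 5.41e-05, limma). It rose also in Hdac2 WT against water embryos (0.99 ± 0.16, adjusted p = 0.00101, limma), where Hdac1 did not pass (−0.26 ± 0.18). With Hdac1 injected in both groups, it rose by 1.74 ± 0.16 in Hdac1 mutant against WT late embryos. A shared response of neighbours was not tested.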
